A study of Mus musculus with 33 samples.

Results

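The MAPK feedback genes examined here are 10 genes, 4 dual-specificity phosphatases (*Dusp1*, *Dusp4*, *Dusp5* and *Dusp6*), 3 Sproutys (*Spry1*, *Spry2* and *Spry4*) and 3 SPREDs (*Spred1*, *Spred2* and *Spred3*), of 41565 named entries in the table of mouse hypothalamic RNA-seq. They were taken by gene symbol, and the list was selected on earlier results of these libraries, in which *Dusp1* and *Spred3* had been called in the POA at 4 months. Values in the POA are therefore given as a description without a test, and tests of these genes are given for the PH, whose libraries may come from the same mice as those of the POA, since the labels do not pair them.

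Growth factors and neurotransmitters activate RAS, RAF, MEK and ERK in turn, and ERK induces genes that switch the cascade off again. Dual-specificity phosphatases remove phosphate from MAPKs, with DUSP1 and DUSP4 in the nucleus acting on several MAPKs, DUSP5 in the nucleus acting on ERK, and DUSP6 in the cytoplasm acting on ERK. Sproutys act between receptor tyrosine kinases and RAS, and SPREDs bring neurofibromin to RAS at the membrane. In neurons *Dusp1* is also an immediate early gene, transcribed within minutes of activity or stress.

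Bulk poly(A) RNA was sequenced in 33 libraries of dissected, flash-frozen preoptic area (POA), which holds neurons of temperature control, and posterior hypothalamus (PH), which holds the arcuate nucleus, of adult WT C57BL/6 females. The intact mice were collected in diestrus (their titles read sham, another label intact, and 4 PH and 5 POA libraries were analyzed); the others were ovariectomized (OVX) 14 days or 4 months before collection, with 6 libraries of each region and time. The 4-month mice were older than the intact mice at collection, and no intact group of their age was analyzed, so time after OVX and age cannot be told apart. The labels give 2 batches, and each group holds libraries of both. The deposited values are a normalized signal on a linear scale (hereafter the value), not counts, and they summed to between 44534053 and 72945400 per library. Read depth could not be recovered from them. PH 14-day replicate 5 stood apart, with the highest total and a first surrogate variable (SV1, an estimate of unmodelled variation) of 0.7852, and is given with its effect where a result rests on it. Summed posterior hypothalamic markers were 4005 to 7763 in intact PH and 3862 to 7399 in intact POA libraries, ranges that overlap, and levels are not compared between regions. In bulk tissue, fewer cells of a type and less RNA per cell cannot be told apart.

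All 10 genes were above the detection filter in every library (the floor of the table is 22.2, and a gene was tested from 2 times that). In GENCODE M39 (GRCm39), *Dusp1* lies at chr17:26724564-26781102 on the minus strand, a span that overlaps 4 genes of the opposite strand and 2 of the same strand. *Spred3* lies at chr7:28857984-28869836 on the minus strand and overlaps *Ggn* and 1 lncRNA of the opposite strand. *Spred2* lies at chr11:19874355-19974442 on the plus strand, overlapping 1 lncRNA of the same strand, and *Spry1* at chr3:37693897-37698755 on the plus strand. The library kit keeps strand, but the strand setting of the quantification is not given in the sources used here, so reads of overlapping genes of either strand may be included. These spans are those of M39, whereas the authors used kallisto with GENCODE M30. Overlap of gene spans does not show which reads were assigned to a member.

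The 5′ flanks of 3 members that differ in their promoter sequences are shown, as RefSeq gives them on GRCm38.p6, 190 bases each, from 250 to 61 bases before the transcription start in the direction of transcription. *Dusp1* (chr17:26508533-26508722, minus) and *Dusp5* (chr19:53528895-53529084, plus) hold sites for activity-regulated factors, and *Spred3* (chr7:29168708-29168897, minus) holds none of the sites searched. Capitals mark cAMP response elements (CREs, the full site TGACGTCA and the core site TGACG) in *Dusp1* and serum response elements (CArG boxes) in *Dusp5*.
Dusp1: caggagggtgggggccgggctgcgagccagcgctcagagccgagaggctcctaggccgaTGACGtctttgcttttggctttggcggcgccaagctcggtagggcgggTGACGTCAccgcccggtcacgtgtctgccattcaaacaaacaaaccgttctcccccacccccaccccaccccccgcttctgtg
Dusp5: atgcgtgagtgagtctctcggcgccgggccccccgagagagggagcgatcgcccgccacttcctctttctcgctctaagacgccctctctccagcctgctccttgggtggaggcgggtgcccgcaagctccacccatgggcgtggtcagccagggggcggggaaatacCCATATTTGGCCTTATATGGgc
Spred3: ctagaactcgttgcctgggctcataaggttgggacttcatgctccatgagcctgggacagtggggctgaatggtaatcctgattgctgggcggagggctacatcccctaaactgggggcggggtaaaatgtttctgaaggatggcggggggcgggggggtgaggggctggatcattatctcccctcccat

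RefSeq promoter entries were matched for 8 of the 10 members, not for *Dusp4* and *Spry4*. Over the full 250 bases before the start, searched on both strands, *Dusp1* holds a full CRE at -143 to -136, which 1.55% of 32851 mouse promoters hold, and a separate core site at -191 to -187, which 17.8% hold. The full site contains core sites on both strands. *Dusp5* holds CArG boxes at -82 to -73 and -72 to -63, a motif that 1.47% of promoters hold, and a core CRE at -55 to -51. *Spred2* holds a core CRE at -51 to -47. No member matched had an AP-1 site (TGANTCA, 6.75% of promoters), an EGR site (GCGGGGGCG, 2.57%), an ETS site (CCGGAAGT, 2.88%), a glucocorticoid response element (by name, 0.00913%), an estrogen response element (by name, 0.0213%) or a TATA box (TATAAA, 12.4%). These matches describe letters and not binding.

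In the PH, none of the 10 genes passed the test in any comparison. Fitted log2 fold changes at 4 months versus intact lay between -0.20 (*Dusp4*, *Dusp5* and *Spred3*) and 0.19 (*Spry1*). Their 95% intervals reached down to -0.56 (*Dusp5*) and up to 0.51 (*Dusp1*), so differences of that size remain possible. The test was limma on log2 values of all PH libraries with SV1 as a covariate, with Benjamini-Hochberg adjustment over 21949 genes and a call at an adjusted p under 0.05. At 14 days versus intact, 0 of 10 members were called against 0% of all genes, and 0 of 10 had an unadjusted p under 0.05 against 3.04% of all genes. At 4 months versus intact, 0 of 10 were called against 0.0319%, and 1 of 10, *Spred3*, had an unadjusted p under 0.05 against 6.06%. At 4 months versus 14 days, 0 of 10 were called against 0.00911%, and 3 of 10 (*Dusp1*, *Spry1* and *Spry4*) had an unadjusted p under 0.05 against 4.09%. The median log2 fold change of the members was -0.05, -0.09 and -0.04 in that order, against -0.002, -0.009 and -0.008 over all genes tested.

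**Figure D1:**
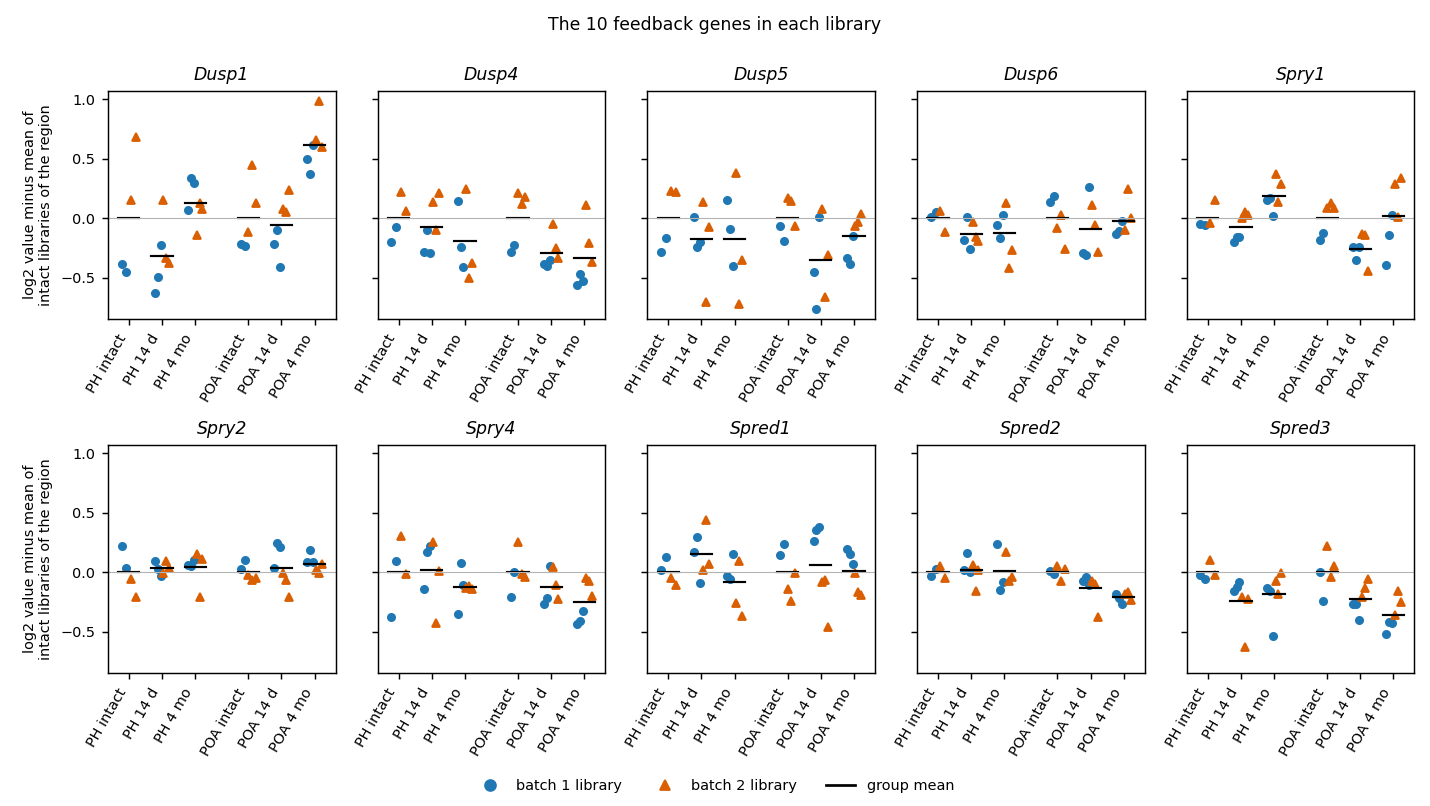
Log2 value of each of the 10 genes in each library minus the mean of the intact libraries of the same region, by region and group (PH and POA; intact, 14 days and 4 months after OVX); points are libraries, circles batch 1 and triangles batch 2, and black lines are group means. In the POA at 4 months, 5 of 6 libraries lie above all intact libraries for *Dusp1* and 5 of 6 below them for *Spred3*, and in the PH at 14 days all 6 lie below them for *Spred3*.

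*Dusp1* encodes the nuclear phosphatase that acts on p38, JNK and ERK. In the PH its values in the intact libraries were 587, 559, 857 and 1232. At 14 days they had a lowest value of 499, a median of 601 and a highest of 855, and at 4 months 696, 823 and 966. The intact range overlapped that of both OVX groups, and the high pair of intact libraries was the pair of batch 2. The fitted log2 fold change was -0.27 (SE 0.19) at 14 days and 0.11 (SE 0.19; limma adjusted p = 0.959) at 4 months versus intact, and 0.38 (SE 0.18) for 4 months versus 14 days (limma adjusted p = 1).

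The PH difference of *Dusp1* at 4 months versus intact was not of 1 direction in both batches. Within batch 1 the log2 fold change at 4 months versus intact was 0.66 (SE 0.16), and within batch 2 it was -0.40 (SE 0.23), so the directions were opposite. Leaving out 1 library at a time gave -0.04 (without intact replicate 2) to 0.34 (without intact replicate 4). At 14 days versus intact the difference was -0.02 (SE 0.16) in batch 1 and -0.60 (SE 0.23) in batch 2, and leaving out 1 library at a time gave -0.42 (without intact replicate 2) to -0.07 (without intact replicate 4). For 4 months versus 14 days both batches gave a positive difference, 0.68 (SE 0.14) in batch 1 and 0.20 (SE 0.21) in batch 2.

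In the POA the *Dusp1* values in the intact libraries were 571, 566, 611, 906 and 723. At 14 days the lowest, median and highest values were 500, 654 and 781, and at 4 months 860, 1011 and 1317. The 4-month libraries lay above all 6 libraries of 14 days, and 5 of 6 lay above all intact libraries, the exception being the library at 860, below the highest intact value of 906. Described as log2 fold changes from the same fit, these were 0.68 (SE 0.09) versus intact and 0.69 (SE 0.09) versus 14 days, a 1.61-fold level in both cases, and 0.00 (SE 0.09) at 14 days versus intact. Within batch 1 the 4-month difference from intact was 0.72 and within batch 2 it was 0.59. Among all 21317 genes tested in the POA, 0.0657% had 4-month values wholly above those of 14 days.

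*Dusp4*, *Dusp5* and *Dusp6* have narrower roles, on ERK and other MAPKs in the nucleus, on nuclear ERK and on cytoplasmic ERK. *Dusp4* in the PH lay at 393, 431, 528 and 471 in intact libraries, at 369 to 522 at 14 days and at 319 to 538 at 4 months, and all groups overlapped. In the POA its intact values were 426, 442, 602, 564 and 587, against 393 to 502 at 14 days and 352 to 559 at 4 months. In the POA, 4 of 6 libraries at 14 days and 4 of 6 at 4 months lay below every intact library, with log2 fold changes of -0.25 and -0.29. *Dusp5* lay at 284 to 365 in intact POA and at 192 to 342 at 14 days, with a log2 fold change of -0.32, and at 248 to 333 at 4 months, with -0.12. In the PH the fitted changes of *Dusp5* were -0.07 (SE 0.18) at 14 days and -0.20 (SE 0.17) at 4 months versus intact. *Dusp6* ranged from 851 to 1290 over all 33 libraries, with fitted changes between -0.14 and 0.07 in the 6 comparisons.

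*Spry1*, *Spry2* and *Spry4* encode the Sproutys, membrane-associated inhibitors of receptor signaling. *Spry1* in the PH was at 331, 328, 333 and 380 in intact libraries, had a lowest, median and highest value of 298, 324 and 354 at 14 days, and of 348, 384 and 443 at 4 months. Of the 4-month libraries, 5 of 6 lay above all 14-day libraries, and the fitted log2 fold change was 0.25 (SE 0.09; limma adjusted p = 1). Within batches the same difference was 0.29 and 0.24. In the POA the 4-month to 14-day difference of *Spry1* was 0.28 (SE 0.10), with values of 300 to 496 at 4 months and 291 to 359 at 14 days. Within batches this POA difference was 0.11 (SE 0.13) and 0.45 (SE 0.13). The POA intact values were 348, 363, 419, 431 and 419, above which only 2 of 6 libraries at 4 months lay. Of the 14-day POA libraries, 4 of 6 lay below all intact libraries. The POA log2 fold change versus intact was -0.23 (SE 0.10) at 14 days and 0.06 (SE 0.10) at 4 months.

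*Spry4* in the PH was at 730, 1007, 1165 and 936 in intact libraries, at 705 to 1126 at 14 days and at 745 to 1006 at 4 months. Its difference between 4 months and 14 days was -0.26 (SE 0.10; limma adjusted p = 1), with all 4-month libraries inside the range of the 14-day libraries. In the POA, *Spry4* was at 884 to 1216 in intact libraries and at 753 to 990 at 4 months, where 3 of 6 libraries lay below all intact libraries. *Spry2* was the steadiest Sprouty, with fitted changes between 0.00 and 0.05 in the 6 comparisons and values of 1038 to 1418.

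*Spred1*, *Spred2* and *Spred3* encode RAS-pathway inhibitors of the SPRED family. *Spred3* in the PH was at 2116, 2082, 2328 and 2125 in the intact libraries, and at 14 days had a lowest, median and highest value of 1395, 1909 and 2032. All 6 libraries at 14 days lay below all intact libraries, as 0.296% of genes did in this direction, and the fitted log2 fold change was -0.16 (SE 0.08; limma adjusted p = 1). Without PH 14-day replicate 5, the lowest library, it was -0.15. At 4 months the PH values were 1491 to 2156, 5 of 6 below all intact libraries, with a log2 fold change of -0.20 (SE 0.08; limma adjusted p = 0.712). Within batches this was -0.24 and -0.13.

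In the POA, *Spred3* was at 2260, 1907, 2628, 2189 and 2328 in intact libraries, had a lowest, median and highest value of 1707, 1913 and 2159 at 14 days, and of 1571, 1723 and 2024 at 4 months. Of the 4-month libraries, 5 of 6 lay below all intact libraries. The log2 fold change was -0.19 (SE 0.06) at 14 days and -0.32 (SE 0.06) at 4 months versus intact, and within batches the 4-month value was -0.34 and -0.33.

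*Spred2* in the POA was at 3465, 3388, 3555, 3267 and 3495 in intact libraries and at 2856 to 3052 at 4 months, with a median of 2992. All 6 of the 4-month libraries lay below all intact libraries, as 0.253% of genes did in this direction. The log2 fold change was -0.22 (SE 0.05) at 4 months and -0.13 (SE 0.05) at 14 days. In the PH *Spred2* was at 3009 to 3243 in intact libraries and at 2825 to 3686 at 4 months, with a log2 fold change of 0.00 (SE 0.08) at 4 months versus intact. The difference between the regions was not tested. *Spred1* ranged from 6933 to 13323 over all 33 libraries, with fitted changes between -0.13 and 0.08.

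**Figure D2:**
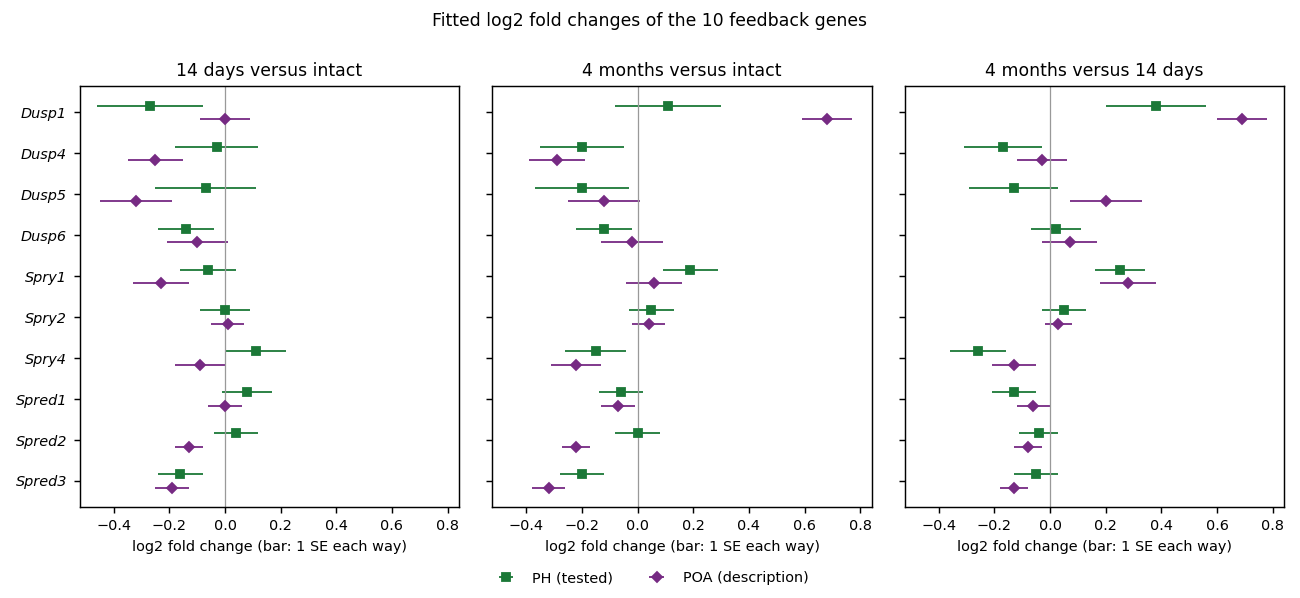
Fitted log2 fold changes of the 10 genes in the 3 comparisons, PH as squares and POA as diamonds, with bars of 1 SE each way; the PH values were tested and the POA values are a description. *Dusp1* in the POA at 4 months has the highest values (0.68 and 0.69), and *Dusp4* and *Spred3* lie below 0 in all 6 comparisons. The lowest values are both -0.32 in the POA versus intact, *Dusp5* at 14 days and *Spred3* at 4 months.

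In the POA fits, the members called were 0 of 10 at 14 days versus intact (0.00469% of all genes), 2 of 10, *Dusp1* and *Spred3*, at 4 months versus intact (0.0938%), and 1 of 10, *Dusp1*, at 4 months versus 14 days (0.0281%). The list was built around those calls, so nothing is read from these counts.

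Summed markers of other cells are given beside these genes. Summed microglial markers, 12 of 12 measured in every library, ran from 15498 to 16803 in intact POA and from 16360 to 20218 at 4 months, and from 14928 to 16227 in intact PH and from 16252 to 20077 at 4 months. Summed endothelial markers, 10 of 10 measured, ran from 9694 to 10595 in intact POA and from 9675 to 13684 at 4 months, and from 9435 to 10211 in intact PH and from 11129 to 14682 at 4 months. Summed red cell markers, 5 of 5 measured, ran from 6507 to 8426 in intact PH and from 12093 to 37251 at 4 months, without overlap, and from 7050 to 16431 in intact POA and from 9569 to 22657 at 4 months. Their median log2 fold change at 4 months versus intact was 1.37 for the PH and 0.85 for the POA, and no marker of these 3 lists was at the floor in all libraries. Of the microglial markers, 1, *C1qa*, was called in the POA at 4 months versus intact (named after its values were seen; called in 6 of 29 alternative settings). Of the red cell markers, 1, *Alas2*, a heme synthesis enzyme, was called in the PH at 4 months versus intact (also named after its values were seen; called in 19 of 28 alternative settings). Of the endothelial markers, 0 were called. Markers of neighboring tissue also differed between POA libraries. Summed pituitary markers (1 of 7 measured in every library) ran from 310 to 7248 at 14 days and 233 to 392 at 4 months. In intact POA they ran from 233 to 1804. Summed choroid plexus markers ran from 4081 to 88772 in intact POA (median 4985) and 3536 to 29396 at 4 months (median 11865). The thalamus markers had a median log2 fold change of 0.43 in the POA at 4 months versus intact and 0.01 versus 14 days. The part of these cells and tissues in the values of the members in either region was not tested.

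*Dusp1* was set beside 22 immediate early genes, transcripts induced rapidly by stimuli that include, but are not limited to, neuronal activity. Bulk tissue does not show which cells, neuronal or other, held these transcripts. None of them was called in the PH. In the POA, *Btg2*, an antiproliferative gene, and *Npas4*, an activity-dependent transcription factor, were called at 4 months versus intact and versus 14 days. Both were named because they were called, and the list was chosen with earlier results of these libraries known. Their adjusted p-values and the counts over this list are therefore not separate evidence. *Btg2* in the POA was at 395, 467, 503, 705 and 403 in intact libraries and at 774 to 962 at 4 months, so that all 6 of the 4-month libraries lay above all intact libraries, as 0.413% of genes did in this direction. Its log2 fold change was 0.89 (SE 0.11; limma adjusted p = 0.00193) versus intact and 0.95 (SE 0.11; limma adjusted p = 0.000595) versus 14 days, calls that were made in 26 and 27 of 29 alternative settings. *Npas4* was at 126, 122, 199, 285 and 220 in intact POA libraries and at 234 to 354 at 4 months, with some overlap.

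The log2 fold change of *Npas4* was 0.74 (SE 0.14; limma adjusted p = 0.0427) versus intact and 0.91 (SE 0.13; limma adjusted p = 0.0068) versus 14 days. The call versus intact was made in 5 of 29 alternative settings and the call versus 14 days in 26 of 29. In the PH the log2 fold changes at 4 months versus intact were 0.58 (SE 0.13; limma adjusted p = 0.207) for *Btg2* and 0.90 (SE 0.21; limma adjusted p = 0.207) for *Npas4*. Versus 14 days they were 0.64 (SE 0.13; limma adjusted p = 0.214) and 0.95 (SE 0.20; limma adjusted p = 0.215). For both genes all 6 PH libraries at 4 months lay above all those of 14 days, as 0.128% of genes did in this direction. Over the immediate early genes, 10 of 22 had an unadjusted p under 0.05 in the POA at 4 months versus intact (7 higher, 3 lower) against 8.5% of all genes, 11 of 22 at 4 months versus 14 days (10 higher, 1 lower) against 5.11%, and 5 of 22 at 14 days versus intact (all lower) against 6.14%. In the PH, 8 of 22, all higher, had an unadjusted p under 0.05 at 4 months versus intact against 6.06% of all genes, and the median log2 fold change of the 22 was 0.21. Among them *Klf2* was at 0.78 (SE 0.15; limma adjusted p = 0.108).

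**Figure D3:**
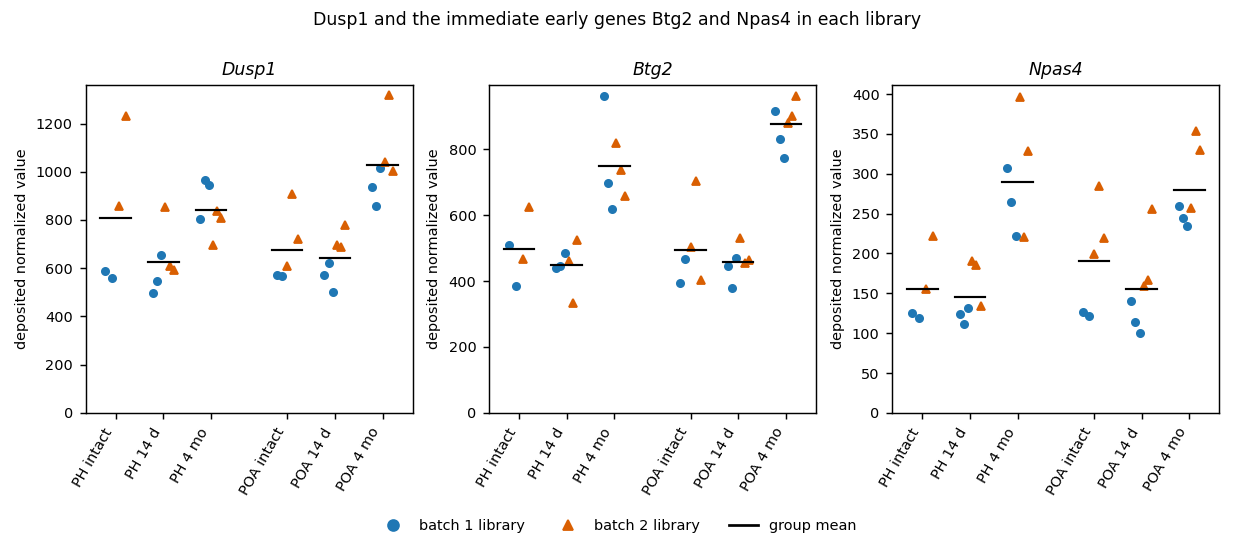
Deposited normalized value (linear axis from 0) of *Dusp1*, *Btg2* and *Npas4* in each library, by region and group; circles are batch 1 and triangles batch 2 libraries, and black lines are group means. All 6 POA libraries at 4 months lie above all POA libraries of 14 days for *Dusp1* and *Btg2*. In the PH the same holds for *Btg2* and *Npas4*, and not for *Dusp1*. The intact PH libraries of batch 2 are the high pair for *Dusp1*.

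The rest of the MAPK pathway gave no call in any of the 6 comparisons. Of 15 other MAPK phosphatases, 0 were called, and at 4 months versus intact their median log2 fold change was -0.05 in the PH and 0.00 in the POA. *Dusp2*, a nuclear phosphatase, was at 0.25 (SE 0.14; limma adjusted p = 0.856) and *Dusp26* at -0.11 (SE 0.07; limma adjusted p = 0.884) in the PH. Of 20 other inhibitors of receptor and RAS signaling, 18 were tested and 0 were called, with *Cblc* at the floor in every library. *Nf1*, which encodes neurofibromin, the partner of the SPREDs, was at 0.15 (SE 0.10; limma adjusted p = 0.876) and *Cblb*, a ubiquitin ligase that limits receptors, at 0.16 (SE 0.09; limma adjusted p = 0.865) in the PH at 4 months versus intact.

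Of 29 genes of the RAS to ERK cascade, 0 were called, and 5 in the PH at 4 months versus intact had an unadjusted p under 0.05 (3 higher, 2 lower), against 6.06% of all genes. The exchange factors *Rasgrf1* and *Rasgrf2*, which load RAS with GTP, were at 0.24 and 0.22 in the PH (limma adjusted p = 0.638 and 0.795). Of 20 JNK, p38 and ERK5 kinases, 0 were called. In the PH at 4 months versus intact, *Map3k4* was at 0.19 and *Mapk11*, which encodes p38 beta, at -0.18. In the POA the same comparison gave 0.06 and -0.10. Of 24 ERK effector kinases and ERK-induced transcripts, 23 were tested and 0 were called. The transcription factor genes *Ets1* and *Etv5* were at 0.28 (SE 0.10; limma adjusted p = 0.638) and 0.18 (SE 0.10; limma adjusted p = 0.866) in the PH at 4 months versus intact. In the POA they were at 0.22 and -0.08 in this comparison.

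Upstream, of 20 growth factor receptors 0 were called. The VEGF receptor genes *Kdr* and *Flt1* were each at 0.59 in the PH at 4 months versus intact (limma adjusted p = 0.162 and 0.225). Both are among the 10 endothelial markers summed above, so those sums are not separate from them. *Flt1* alone had a mean value of 2607 in intact PH and 3962 at 4 months. Of the 10 markers, 8 were above 0 and 2 below 0 in this comparison, with a median log2 fold change of 0.26. Of 26 growth factors 25 were tested and 0 were called, with *Egf* at 0.45 and *Gdnf* at -0.33 in the PH (limma adjusted p = 0.697 and 0.73). Of 16 glucocorticoid-induced genes 0 were called. At 14 days versus intact 2 of these 16 had a log2 fold change above 0 in each region, with medians for PH and POA of -0.15 and -0.17, against 49.4% and 47.8% of all genes above 0 and medians of -0.002 and -0.006. In the PH at 4 months versus intact, *Pdk4*, an inhibitor of pyruvate dehydrogenase, was at 0.33 (limma adjusted p = 0.619) and *Sult1a1*, a sulfotransferase, at 0.42 (limma adjusted p = 0.638).

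Co-variation of the members was described over the 33 libraries after log2 values were centred within region, group and batch. The libraries share tissue and dissection, so no test is attached. The 45 pairs had Pearson correlations of -0.64 to 0.77, with a median of 0.17, and 3 pairs were over 0.5. These were *Dusp4* with *Spred2* (0.77), *Dusp4* with *Dusp5* (0.66) and *Dusp5* with *Dusp6* (0.60). The lowest was *Spred1* with *Spred3* (-0.64). *Dusp1* was negative with 7 of the other 9 members, with *Spry2* at -0.47, *Dusp4* at -0.37 and *Spred1* at -0.35.

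Without PH 14-day replicate 5, *Dusp4* with *Spred2* was 0.75 and *Spred1* with *Spred3* was -0.52. *Dusp1* was then negative with all 9 other members.

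**Figure D4:**
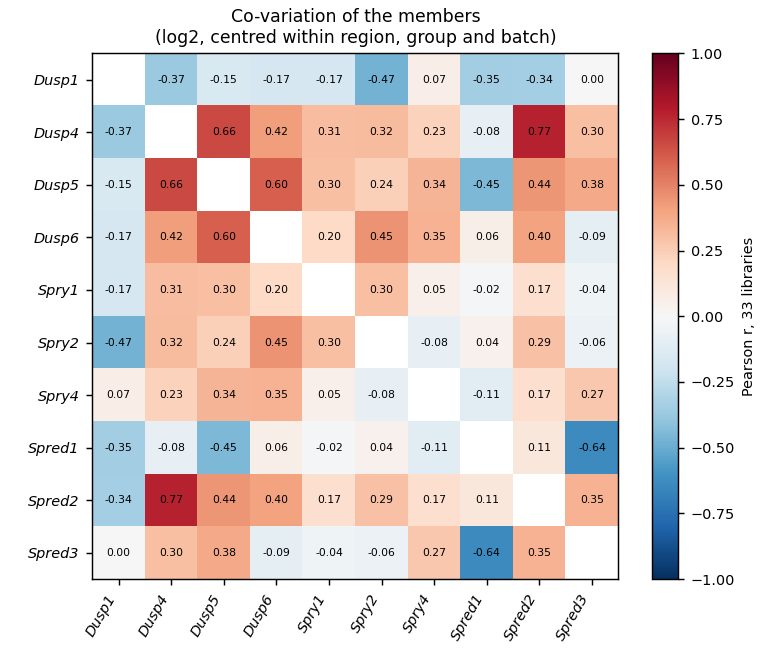
Pearson correlation between each pair of the 10 genes over 33 libraries, on log2 values centred within region, group and batch (color scale from -1, blue, to 1, red). The highest values are *Dusp4* with *Spred2* (0.77), *Dusp4* with *Dusp5* (0.66) and *Dusp5* with *Dusp6* (0.60), and the row of *Dusp1* is mostly at or below 0.

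Against the immediate early genes, *Dusp1* had correlations of -0.45 to 0.54, with a median of 0.14, and 2 of 22 were over 0.5, *Nr4a1* (0.54) and *Klf2* (0.52). Over all 21175 genes compared the median was 0.01, and 1.04% were over 0.5. *Fos* was at 0.37, *Npas4* at 0.38, *Btg2* at 0.15, *Egr1* at -0.04 and *Egr3* at -0.45. The genes most like *Dusp1* were *Zfp641* (0.81), *Gsto2* (0.72), *9330198I05Rik* (0.71), *Gtf2h4* (0.71) and *Gm50092* (0.71), and those most like *Spred3* were *Ly6e* (0.84), *D930048N14Rik* (0.84), *Ercc2* (0.83), *Tmem86a* (0.83) and *Mepce* (0.82). Without PH 14-day replicate 5 these ranged from 0.70 to 0.83 for *Dusp1* and from 0.72 to 0.75 for *Spred3*. At 4 months versus intact, *Zfp641* had log2 fold changes of -0.02 in the PH and 0.02 in the POA.

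Over the libraries, batch separated some members. Batch 2 exceeded batch 1 in all 3 POA groups for *Dusp1* (mean log2 difference 0.33), *Dusp4* (0.32), *Spry1* (0.23), *Dusp5* (0.19), *Spred3* (0.19) and *Spry4* (0.17), and it was below batch 1 in all 3 for *Spred1* (-0.37) and *Spry2* (-0.15). Each group holds libraries of both batches.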

How the data were processed

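RNA from 33 PH and POA libraries was measured by the authors with stranded mRNA kits, kallisto, tximport and DESeq2 (mouse build mm39, GENCODE M30). Per the labels and the values, the deposited table is a normalized linear signal, decimal and not counts, and how it was normalized is not given in the sources used here. Depth and counting error are therefore unknown, and 0 columns of values lacked a sample.

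Log2 values were taken without a pseudocount. Genes at 2 times the floor of 22.2 or above in at least 4 PH or 5 POA libraries were tested with limma (version 3.58.1, R 4.3.3; trend and robust) on the 3 groups of a region with SV1, estimated within the region by the iteratively reweighted method written in base R, since the values are not counts. P values were adjusted by Benjamini-Hochberg over all genes, a call being under 0.05. The fits were tested on simulated data. Nameless entries (1259) were dropped, and 972 of the 41565 others carry symbols that M39 lacks. Where the labels do not say that libraries came from separate mice, p-values measure the spread between libraries.

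The members and lists were chosen with earlier results of these data known. Named genes are the members, called pathway or immediate early genes, the 2 of each list with the smallest p in the PH at 4 months, and the 5 most correlated with *Dusp1* and *Spred3*. Alternatives changed the covariate, filter, pseudocount (50), variance model, batch and libraries. Promoter motifs were searched in RefSeq sequences (GRCm38.p6). The paper's comparisons were not used.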

Additional observations from a re-analysis of the deposited data

Results flagged for a closer look

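The 10 members, *Btg2* and *Npas4* were examined in 6 groups each, 72 groups in all. In 5 of the 72, a value stood off from the rest by more than the critical gap for that group size. Chance gives such a gap in about 1 of 20 groups, so 5 of 72 is near the share that chance gives. The value of *Spry1* was 380 in PH intact replicate 4, against 328 to 333 in the other 3 libraries. *Spry2* was at 1053 in PH 4-month replicate 5, against 1264 to 1347 in the others. *Spred3* was at 1395 in PH 14-day replicate 5, against 1852 to 2032. This is the library that stands apart in SV1. *Spred2* was at 2642 in POA 14-day replicate 6, against 3198 to 3344. *Dusp6* was at 1268 in POA 4-month replicate 5, against 973 to 1077. Whether anything beyond chance set these values apart was not tested.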

How the results depend on the processing

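In the PH, 0 of the 10 members were called in any comparison under any alternative, over 840 values, of which 37 had the other direction. In the POA, 33 of 870 member values had the other direction, and *Dusp1*, *Spred3* and *Spred2* were the members called. Because the list was built around POA calls, the counts of POA members called, here and below, only describe the settings, and nothing is read from them. Over both regions 11 of 1710 member values moved by more than 1 SD between replicates, and 3 values whose main log2 change was at least 0.15 changed sign, all within PH batch 1 alone (*Dusp4*, 0.06 at 4 months versus 14 days; *Dusp5*, 0.11, and *Spry4*, 0.02, at 4 months versus intact). Counts of all genes called were 0, 7 and 2 for the PH (14 days versus intact, 4 months versus intact, 4 months versus 14 days) and 1, 20 and 6 for the POA, same order. With the replicate block and SV1 they were 1, 7 and 1 (PH) and 0, 1 and 7 (POA), where the members called were 0 at 4 months versus intact and 1 at 4 months versus 14 days. Whether replicate numbers pair libraries could not be decided from correlations between groups, because unlike numbers of the same batch gave overlapping values. PH libraries sharing a number correlated at -0.181 to 0.392 (9 of 14 pairs over 0.1), and those of unlike number within a batch at -0.35 to 0.452. For POA libraries these ranges were -0.309 to 0.39 (14 of 16 pairs over 0.1) and -0.0307 to 0.427. Each region had 2 same-numbered pairs that crossed batches. Pairing of PH with POA libraries was not examined.

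With batch in place of SV1 the PH counts were 0, 3 and 0. With no covariate they were 0, 4 and 0, and in the POA 0, 2 and 1, with 0 members called at 4 months versus intact and versus 14 days. With SV1 and batch together, 1 gene was called at 4 months versus 14 days in the PH and 2 at 14 days in the POA, and 1 member, *Dusp1*, at 4 months versus intact in the POA. SV1 over all libraries gave 10 genes and 1 member in the POA at 4 months versus intact. Only the 2 groups compared gave 2 genes (PH 14 days), 1 (PH 4 months versus 14 days), 0 (POA 14 days) and 2 with 0 members (POA 4 months versus intact). No filter gave 1, 6 and 0 (PH) and 8 genes with 1 member in the POA at 4 months versus intact, and centring gave 9. Without trend and robust variance, 1 gene was called at 4 months versus 14 days (PH), and 7 genes and 1 member at 4 months versus intact (POA). Batch 1 alone gave 1 gene in the PH at 4 months versus intact and 0 genes and 0 members in the POA, and batch 2 alone 0 throughout.

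Leaving out 1 library at a time gave 0 to 1, 5 to 14 (14 without PH 4-month replicate 3) and 1 to 3 genes for the PH, and 0 to 2, 4 to 37 (37 without POA 14-day replicate 6) and 3 to 7 for the POA, with 1 to 3 members at 4 months versus intact. Read depth is unknown, so what it limits could not be stated.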
